A study of Mus musculus with 12 samples.

Results

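The genes described here are 10 genes of the growing axon: the growth cone genes Gap43, Basp1, Marcks and Marcksl1, the stathmins Stmn1, Stmn2, Stmn3 and Stmn4, and the beta-tubulins Tubb2b and Tubb3. They were chosen by symbol, for what their products are known to do, and were found as 10 of the 32289 features of the count matrices. They were followed through the cell types of the superior mesenteric ganglion (SMG), a sympathetic ganglion of the abdomen, which was dissociated whole in 12 mice for single-cell RNA sequencing in droplets (10x Chromium, 3' chemistry v1). All mice were of strain 129+Ter/SvJcl. One mouse was wild type (WT) at 3 weeks of age, 10 were Th-MYCN+/- hemizygotes at 3 weeks (numbered #1 to #10), and 1 was a Th-MYCN+/- hemizygote at 6 weeks, which the study chose for a tumour visible by eye. In Th-MYCN mice the rat Th promoter drives human MYCN in cells of the sympathetic lineage, and the transgene is listed among the features as H-MYCN.

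An axon grows at its tip, the growth cone, where actin filaments at the membrane and microtubules behind it are remodelled together. Gap43, Basp1, Marcks and Marcksl1 encode acidic proteins that bind the inner face of the membrane. Gap43, Marcks and Marcksl1 are substrates of protein kinase C that also bind calmodulin, and Basp1 is a related protein of growth cones. Stathmins bind free tubulin and favour the shortening of microtubules, Stmn1 in many dividing cells and Stmn2, Stmn3 and Stmn4 mainly in neurons. Tubulin beta-3, the product of Tubb3, is a standard marker of neurons, and Tubb2b encodes another beta-tubulin of developing neurons. Many of these genes are also active in neuroblastoma, a tumour of sympathetic precursors.

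In the GRCm38 annotation all 10 are protein-coding genes. Gap43 lies on the minus strand of chromosome 16 (42248442 to 42340651), Basp1 on the minus strand of chromosome 15 (25363277 to 25413764), Marcks on the minus strand of chromosome 10 (37133375 to 37138920) and Marcksl1 on the plus strand of chromosome 4 (129513581 to 129515985). Of the stathmins, Stmn1 lies on the plus strand of chromosome 4 (134468320 to 134473843), Stmn2 on the plus strand of chromosome 3 (8509360 to 8561606), Stmn3 on the minus strand of chromosome 2 (181306459 to 181314500) and Stmn4 on the plus strand of chromosome 14 (66344296 to 66361680). Tubb2b lies on the minus strand of chromosome 13 (34126748 to 34130466) and Tubb3 on the plus strand of chromosome 8 (123411424 to 123422015). Stretches shared with another gene could split the reads of stathmins or tubulins. In each of the 10 genes, 0 of the 403 windows of 98 bases in the last 500 bases of the longest protein-coding transcript had an exact match in another gene. Near-identical copies, which differ within a window, were not searched for.

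RefSeq promoter sequence of GRCm38.p6 was at hand for only 4 of the 10 genes, and for that reason these 4 are shown. Of them, Basp1 and Marcksl1 were higher in neuroblast-like than in ganglion-like cells, Stmn3 was lower and Tubb3 did not pass the test. Each run is 5′ to 3′ on the strand of the gene and ends at the base before its start, and capitals mark GC boxes (GGGCGG or CCGCCC).
Basp1, chr15:25413765-25414014, minus strand: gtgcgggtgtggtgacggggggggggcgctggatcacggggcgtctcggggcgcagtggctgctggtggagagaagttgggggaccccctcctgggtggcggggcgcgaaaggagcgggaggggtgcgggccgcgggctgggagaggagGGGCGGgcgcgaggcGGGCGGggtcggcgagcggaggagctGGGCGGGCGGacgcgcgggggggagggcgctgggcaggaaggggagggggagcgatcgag
Marcksl1, chr4:129513331-129513580, plus strand: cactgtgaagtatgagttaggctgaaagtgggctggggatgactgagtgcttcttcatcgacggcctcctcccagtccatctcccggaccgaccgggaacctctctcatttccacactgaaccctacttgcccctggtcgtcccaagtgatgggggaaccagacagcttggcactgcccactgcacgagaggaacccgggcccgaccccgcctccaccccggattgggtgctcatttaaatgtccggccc
Stmn3, chr2:181314501-181314750, minus strand: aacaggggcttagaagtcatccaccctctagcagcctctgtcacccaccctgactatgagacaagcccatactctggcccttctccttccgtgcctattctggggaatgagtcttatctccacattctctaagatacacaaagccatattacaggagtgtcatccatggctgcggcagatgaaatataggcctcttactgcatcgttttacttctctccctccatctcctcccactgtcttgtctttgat
Tubb3, chr8:123411303-123411423, plus strand: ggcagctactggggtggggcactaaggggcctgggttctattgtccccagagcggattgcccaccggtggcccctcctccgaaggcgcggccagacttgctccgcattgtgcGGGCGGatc

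The 4 stretches differed widely in base composition. The Basp1 stretch had a GC content of 78.8% with 30 CpG and 4 GC boxes, of which the last 2 overlap, and the Stmn3 stretch one of 48.8% with 3 CpG and 0 GC boxes. Marcksl1 had 60.4% GC with 12 CpG and 0 GC boxes. Tubb3, whose stretch was cut at the annotated start of the gene to 121 bases, had 67.8% GC with 8 CpG and 1 GC box. Over 32851 RefSeq promoters the median was 52.4% GC with 6 CpG, and 32.7% held a GC box on either strand. The E-box CACGTG, a motif of MYC family proteins, was in 0 of the 4 stretches and in 6.02% of all promoters. The letters TATAAA, searched on both strands, were also in 0 of the 4 and in 12.4% of all promoters. These matches describe the letters of a short window only.

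The deposited values are counts of UMIs, each of which stands for 1 captured RNA molecule. The libraries held 1147772 UMIs (WT), 1444554 to 6388766 UMIs (3-week-old Th-MYCN+/-) and 4824039 UMIs (6-week-old), and 12005 barcodes were taken as cells, 522 to 1822 for each 3-week-old Th-MYCN+/- mouse. Since UMIs are counted at the 3' end, a level does not grow with the length of the gene. Levels are given as CPM, that is, per 1000000 UMIs of all cells of a class in a mouse, so that a lower level in a class cannot be told apart from more RNA of other genes. Cells were clustered without the 10 genes, without their related lists and without H-MYCN. The clusters gave 5259 neuroblast-like, 2725 ganglion-like and 2923 Schwann-like cells, beside 507 endothelial-like cells and smaller classes (macrophage-like 241, fibroblast-like 141, myofibroblast-like 165, NKT-like 44). In the 3-week-old Th-MYCN+/- mice these names fitted the markers given next. Markers of other cell types that some clusters met are given with the processing. H-MYCN stood at 305 ± 150 CPM (SD, n = 10) in neuroblast-like and 2.24 ± 2.94 CPM in ganglion-like sums, and the neuroblast marker Dlk1 at 1725 ± 556 and 43.8 ± 43.5 CPM. The Schwann cell markers together made up a median of 10.9% of UMIs in Schwann-like sums (7.06 to 12.9%). Mouse #2 stood apart, with 38.6% of its UMIs in cells, 1500 ganglion-like cells and only 11 Schwann-like cells. It was left out as an alternative in the tests between classes and on the axis, and it did not enter the comparison along the cell cycle. The 46 cells of the WT mouse that fell into neuroblast-like clusters went against that name. They had 0 UMIs of Dlk1 and Cartpt, their Th level was 2180 CPM, and 1 cell gave 41.2% of their UMIs. H-MYCN was at 0 UMIs too, but a WT mouse lacks the transgene, so this does not bear on the name. The paper, with its own clusters, reports neuroblasts in the WT ganglion at a low proportion and proposes that they are immature neuroblasts or resident stem cells.

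Summed, the 10 genes had their largest share of RNA in the neuroblast-like and ganglion-like cells. This did not hold for each gene, as Marcks and Marcksl1 were lower in ganglion-like than in Schwann-like sums. Together they made up 2.20 ± 0.178% of all UMIs in neuroblast-like sums and 1.96 ± 0.239% in ganglion-like sums (SD, n = 10 mice), against 0.317 ± 0.152% in Schwann-like sums. In the remaining classes with several mice their share lay between 0.0519% (fibroblast-like, n = 5) and 0.118% (endothelial-like, n = 9). Between the neuroblast-like and ganglion-like classes the genes parted. Basp1, Marcksl1, Stmn1, Stmn4 and Tubb2b had their highest mean level in neuroblast-like sums, Gap43, Stmn2, Stmn3 and Tubb3 in ganglion-like sums, and Marcks in Schwann-like sums.

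**Figure D1:**
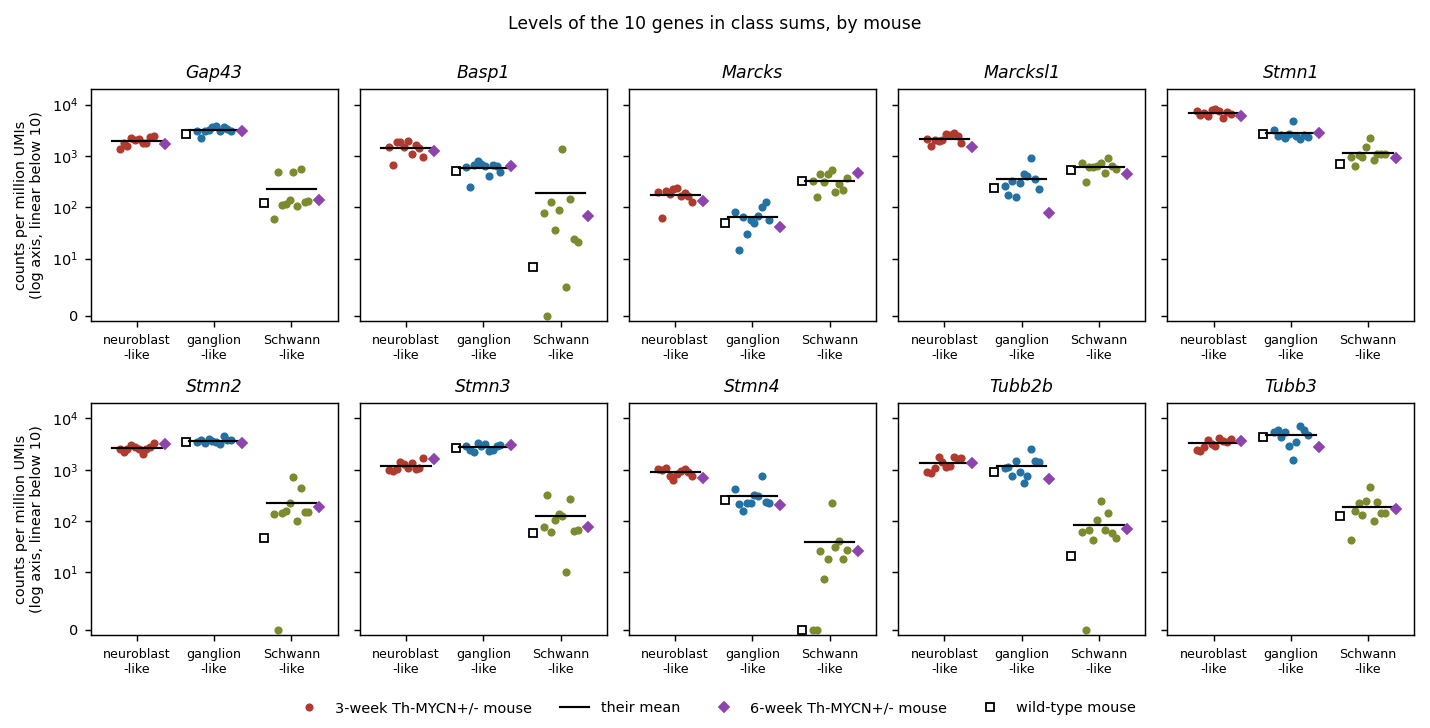
Levels of the 10 genes in CPM on a logarithmic scale, in neuroblast-like, ganglion-like and Schwann-like sums, where each point is 1 mouse, bars are the means of the 10 Th-MYCN+/- mice of 3 weeks, and the WT and 6-week-old mice have their own symbols. Marcksl1, Stmn1 and Stmn3 separate the neuroblast-like from the ganglion-like sums in every 3-week-old Th-MYCN+/- mouse, and most genes lie far lower in Schwann-like sums.

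Among the growth cone genes, Gap43, the classical marker of axon growth and regeneration, was higher in ganglion-like cells. Its level in the 10 3-week-old Th-MYCN+/- mice ran from 1390 CPM over a median of 1918 CPM to 2407 CPM in neuroblast-like sums, and from 2189 over 3120 to 3849 CPM in ganglion-like sums. The ranges overlapped only because of mouse #2, whose ganglion-like level of 2189 CPM was the lowest by far, yet within each mouse the ganglion-like level was the higher one. Gap43 was lower in neuroblast-like cells by edgeR's quasi-likelihood test with the mouse as a block (log2 fold change −0.67, SE 0.09, Benjamini-Hochberg adjusted p = 2.3e-06).

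Basp1, which like Gap43 gathers at growth cone membranes, went the other way. Its level ran from 663 over 1498 to 1946 CPM in neuroblast-like sums and from 246 over 639 to 784 CPM in ganglion-like sums. Mouse #2 had the lowest level in both classes, the ranges overlapped, and the neuroblast-like level was higher within 10 of 10 mice (log2 fold change 1.35, SE 0.11, adjusted p = 8.0e-10 by edgeR). Of the summed UMIs of Gap43 and Basp1, Gap43 therefore gave 57.7 ± 9.22% in neuroblast-like and 84.8 ± 2.92% in ganglion-like sums. This share does not depend on how libraries are scaled.

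Marcksl1, a membrane-bound regulator of actin, changed most of the 10 genes between both classes. Its level ran from 1549 over 2089 to 2746 CPM in neuroblast-like sums and from 160 over 309 to 901 CPM in ganglion-like sums, with no overlap. The log2 fold change was 2.83 (SE 0.15, adjusted p = 3.1e-12 by edgeR), which was larger than that of 96.2% of the 7808 genes tested. The ganglion-like level lay below the level of free RNA, taken from barcodes with at most 100 UMIs, in 10 of 10 mice (median ratio 0.355). With free RNA subtracted the log2 fold change was 4.58, and over the other 16 settings it ran from 2.73 to 3.03. The part of free RNA in this difference was not tested beyond that. Subtraction also moved Stmn1 and Stmn4, described next, to 2.07 and 2.30. The lower class also lay under the free level by its median ratio for Stmn4 (0.588), Stmn1 (0.683) and Tubb2b (0.931) in ganglion-like sums. In neuroblast-like sums this held for Stmn3 (0.752), Tubb3 (0.834) and Stmn2 (0.906). In this order, 0, 2, 4, 1, 2 and 2 of 10 mice lay above the free level. Schwann-like levels of Marcksl1 lay between those of both classes, at 622 ± 161 CPM, and were higher than the ganglion-like sums of the same mouse in 10 of 10 mice.

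Marcks, the related protein kinase C substrate, was the least abundant of the 4 growth cone genes in neuroblast-like and ganglion-like sums. Its level was 176 ± 51.8 CPM in neuroblast-like, 64.7 ± 32.3 CPM in ganglion-like and 328 ± 120 CPM in Schwann-like sums, where it ran from 159 over 312 to 530 CPM. The neuroblast-like level was higher than the ganglion-like one in 10 of 10 mice (log2 fold change 1.58, SE 0.20, adjusted p = 9.2e-07 by edgeR) and lower than the Schwann-like one in 10 of 10. Macrophage-like sums held 176 ± 122 CPM (n = 9), a mean like that of the neuroblast-like sums, with a wider spread.

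Among the stathmins, Stmn1, which many dividing cells use to take microtubules apart, was the most abundant of the 10 genes in neuroblast-like cells. It ran from 5492 over 7052 to 8200 CPM in neuroblast-like sums and from 2122 over 2490 to 4861 CPM in ganglion-like sums. The ranges did not overlap, although mouse #6 (27 ganglion-like cells) came close with 4861 CPM. The log2 fold change was 1.43 (SE 0.09, adjusted p = 8.3e-11 by edgeR).

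Stmn2, the stathmin of growing and regenerating axons, ran from 1987 over 2581 to 3335 CPM in neuroblast-like sums and from 3110 over 3713 to 4527 CPM in ganglion-like sums. The ranges overlapped, and the ganglion-like level was higher within 10 of 10 mice. The difference was modest (log2 fold change −0.43, SE 0.10, adjusted p = 0.00083 by edgeR) and did not pass once free RNA had been subtracted (−0.35, adjusted p = 0.13) or a ganglion-like cluster of high depth had been left out (−0.34, adjusted p = 0.068).

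Stmn3, a neuronal stathmin of axons and the Golgi apparatus, ran from 964 over 1064 to 1662 CPM in neuroblast-like sums and from 2185 over 2875 to 3263 CPM in ganglion-like sums, with no overlap. Its log2 fold change was −1.15 (SE 0.10, adjusted p = 6.3e-09 by edgeR). Stmn4, the remaining neuronal stathmin, took the opposite course, from 644 over 935 to 1077 CPM in neuroblast-like sums against 156 over 231 to 763 CPM in ganglion-like sums. Only mouse #8, with 763 CPM in 40 ganglion-like cells, brought the ranges to overlap, and the log2 fold change was 1.70 (SE 0.16, adjusted p = 1.1e-08 by edgeR). The stathmins most used in neurons thus did not move as a group, since Stmn2 and Stmn3 were higher and Stmn4 was lower in ganglion-like cells.

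The tubulins separated the classes least. Tubb3 ran from 2297 over 3338 to 4158 CPM in neuroblast-like sums and from 1551 over 5110 to 6985 CPM in ganglion-like sums, the widest spread between mice in CPM of any of the 10 genes. It was higher in ganglion-like sums in 7 of 10 mice and did not pass the test (log2 fold change −0.38, SE 0.18, adjusted p = 0.064 by edgeR). Tubb2b ran from 863 over 1323 to 1789 CPM and from 556 over 1099 to 2527 CPM, was higher in neuroblast-like sums in 7 of 10 mice, and did not pass either (0.30, SE 0.15, adjusted p = 0.076 by edgeR). Both values lie close to the threshold, and Tubb3 passed under 5 and Tubb2b under 4 of the 17 other settings.

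Altogether 5 of the 10 genes were higher and 3 lower in neuroblast-like than in ganglion-like cells. Of all 7808 genes tested, 36% were called higher and 31.6% lower, 67.7% in all, so that 8 of 10 is a share not far above that of all genes. The levels did not overlap for 3 of the 10 genes (Marcksl1, Stmn1 and Stmn3), against 31.4% of 4063 genes with at least 50 CPM in either class. The number of calls among the 10 genes is therefore no result, and what the data give are the sizes and the opposite directions within families. Levels of markers of other cell types moved with this comparison. The 14 Schwann cell markers together made up a median of 0.0484% of UMIs in neuroblast-like and 0.308% in ganglion-like sums (ranges 0.0193 to 0.547% and 0.125 to 0.639%), and the 12 neuroblast markers 1.82% and 0.362%. The part of these RNAs in the differences was not tested.

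**Figure D2:**
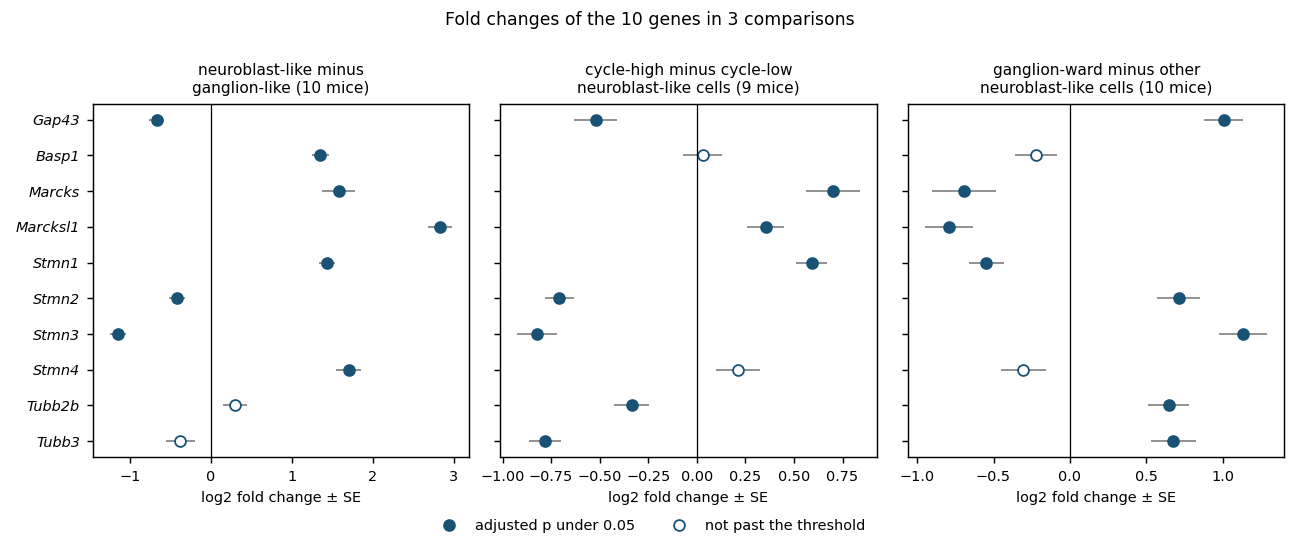
Log2 fold changes of the 10 genes with their SE from edgeR in comparisons between classes or ranges of cells within the 3-week-old Th-MYCN+/- mice, with filled points for genes past the threshold and a separate x axis for each panel. Marcksl1 at 2.83 and Stmn3 at −1.15 mark the extremes of the neuroblast-like against ganglion-like panel.

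The make-up of the families was compared by shares. Of the UMIs of the 4 stathmin genes, Stmn1 gave 59.4 ± 4.26% in neuroblast-like sums and 28.8 ± 5.64% in ganglion-like sums, a difference of 30.6 percentage points that had the same sign in 10 of 10 mice. The share of Stmn2 was 22.6 ± 3.14% and 39.1 ± 4.62%, that of Stmn3 10.2 ± 1.85% and 28.9 ± 2.72%, and that of Stmn4 7.78 ± 1.61% and 3.24 ± 1.74%. By the means, Stmn2 was thus the leading stathmin in ganglion-like cells, and in neuroblast-like cells Stmn1 outweighed the 3 others together. In the ganglion-like sum of mouse #6, Stmn1 led instead, with 41.5% of the stathmin UMIs.

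The 7 beta-tubulin genes were compared in the same way. Tubb5, a beta-tubulin that most dividing cells express, gave 50.9 ± 3.13% of their UMIs in neuroblast-like and 34.0 ± 5.43% in ganglion-like sums, and Tubb3 26.1 ± 2.77% and 37.7 ± 4.11%. The share of Tubb2a was 6.33 ± 0.713% and 11.3 ± 2.34%. Tubb2b gave 10.7 ± 1.35% and 9.76 ± 2.01%, a difference of 0.928 percentage points that did not pass (p = 0.057, adjusted p = 0.061). So Tubb3 kept a lower share of the beta-tubulin UMIs in neuroblast-like cells in 10 of 10 mice, although its level did not pass the test. The shares of a family add up to its whole, so they are not separate results, and those of Gap43 and Basp1 are the same result seen from both sides. Over the 13 shares examined (4 stathmins, 7 beta-tubulins, Gap43 and Basp1), 11 passed a two-sided exact sign-flip permutation test with Benjamini-Hochberg adjustment. The smallest p that 10 mice allow is 0.00195, and this was the p of 10 of them. Tubb2b and Tubb4b (p = 0.309) did not pass.

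**Figure D3:**
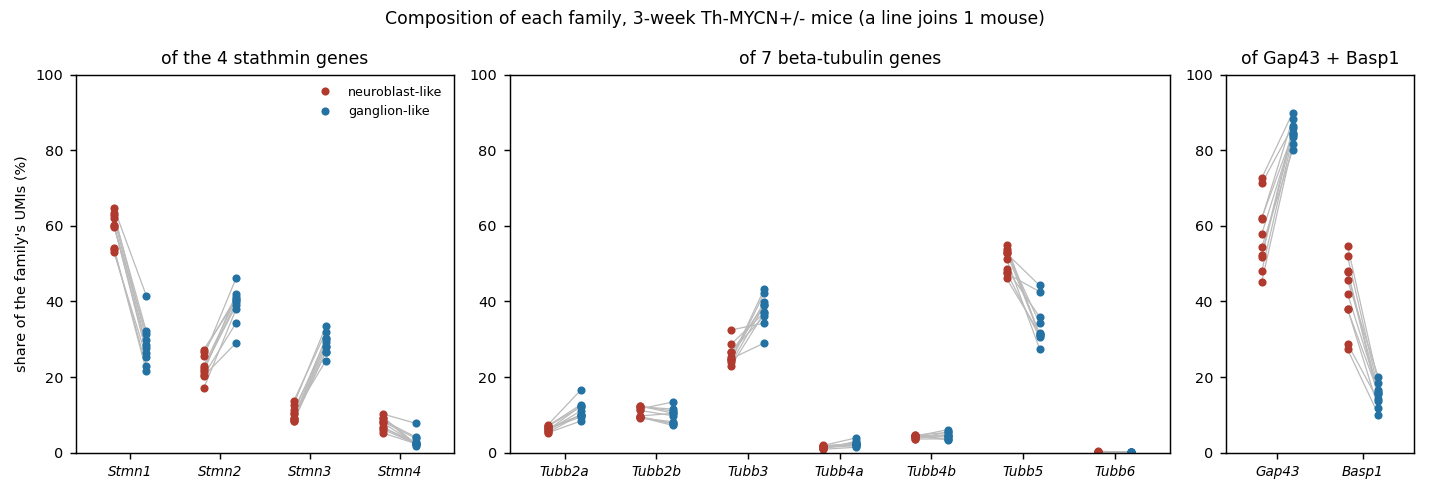
Shares in percent of the UMIs of each family, the 4 stathmins, the 7 beta-tubulins and the pair Gap43 and Basp1, by class in the 3-week-old Th-MYCN+/- mice, where points are mice. Stmn1 gives 59.4% of stathmin UMIs in neuroblast-like and 28.8% in ganglion-like sums, and Gap43 gives 57.7% and 84.8% of the pair.

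Against Schwann-like cells, the glia of the ganglion, 9 of the 10 genes were higher in neuroblast-like cells and 1, Marcks, was lower (background 67.4% of 5696 genes called in either direction, 36% higher and 31.4% lower). The log2 fold changes ran from 1.54 (SE 0.18) for Marcksl1 and 2.40 (SE 0.22) for Stmn1 to 4.52 (SE 0.34) for Stmn4, and that of Marcks was −1.15 (SE 0.15, adjusted p = 4.9e-07 by edgeR). Tubb3 stood at 3.99 (SE 0.26) and Gap43 at 3.28 (SE 0.27). With free RNA subtracted the median over the 10 genes rose from 3.45 to 4.66, so that the sizes depend on this step while the calls did not change. The levels did not overlap for 8 of the 10 genes, all but Basp1 and Marcks, against 31.3% of 4286 genes. Without TMM scaling the median of all genes moved from 0.08 to 0.34 and the split of calls from 2049 higher and 1790 lower to 2595 and 1453, with the same 9 genes higher and Marcks lower.

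Against ganglion-like cells the Schwann-like cells were higher in Marcks and Marcksl1 and lower in the other 8 genes (background 68.8% of 3232 genes, 34.9% called higher and 33.9% lower in ganglion-like cells). The log2 fold changes of ganglion-like against Schwann-like cells were −2.61 (SE 0.24) for Marcks and −1.16 (SE 0.18) for Marcksl1. The others ran from 1.07 (SE 0.16) for Stmn1 to 4.70 (SE 0.27) for Stmn3, and the median over the 10 genes rose from 3.30 to 4.27 with free RNA subtracted. The ranges did not overlap for 6 genes (Gap43, Marcks, Stmn2, Stmn3, Tubb2b and Tubb3), against 23.9% of 4270 genes. The call of Stmn1 was lost once free RNA had been subtracted (0.94, adjusted p = 0.174 by edgeR).

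The Schwann-like levels rest in part on 1 barcode. In mouse #6, 1 of 114 Schwann-like cells held 27462 UMIs, 23.1% of the class, with 17 UMIs of H-MYCN and 42 of Dlk1. It carried all 161 UMIs of Basp1 in that class. With it, the Basp1 level was 188 ± 413 CPM over the 10 mice, and without it 52.5 ± 53.7 CPM. Stmn4 fell from 40.0 ± 67.2 to 19.4 ± 13.3 CPM and Tubb3 from 189 ± 113 to 153 ± 65.7 CPM. The overlaps of Basp1 given above rested on this barcode. Without it the highest Schwann-like level was 144 CPM, below the lowest of 663 CPM in neuroblast-like and 246 CPM in ganglion-like sums. Against ganglion-like sums, Stmn1 (at most 1497 against at least 2122 CPM) and Stmn4 (41.2 against 156 CPM) then did not overlap either. Leaving out Schwann-like cells over 10000 UMIs raised the log2 fold change of Basp1 from 3.99 to 4.63 against neuroblast-like and from 2.79 to 3.46 against ganglion-like cells, and the calls of the 10 genes stayed as they were in both comparisons.

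Free RNA from broken cells also reaches every droplet. Relative to its level, the Schwann-like sums held a median of 0.0757 times the free level for Gap43, 0.0487 for Stmn2, 0.0489 for Stmn3 and 0.0436 for Tubb3. The ratios of genes of neurons that glia should lack were of the same order, with 0.0328 for Npy, 0.0468 for Dbh and 0.0844 for Th. Basp1 (0.0866), Stmn4 (0.0569) and Tubb2b (0.0604) also lay there. Marcks was at 4.38 times the free level and above it in 10 of 10 mice, Marcksl1 at 0.579 and Stmn1 at 0.288. So the ratios of Marcks, Marcksl1 and Stmn1 stood above those of Npy, Dbh and Th, while those of the other 7 genes lay between 0.0436 and 0.0866. Whether Schwann-like cells express these 7 genes was not tested.

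The share of cells with a UMI was compared after each cell had been thinned to 500 UMIs, since the classes differed in depth (in the 3-week-old Th-MYCN+/- mice a median of 2568 UMIs per neuroblast-like, 1155.5 per ganglion-like and 967.5 per Schwann-like cell). Shallower cells were left out (1138, 437 and 401). Stmn1 was then found in 94.1% of neuroblast-like (95% Clopper-Pearson interval 93.3 to 94.9%), 68.8% of ganglion-like and 35.6% of Schwann-like cells. Marcksl1 was found in 64.5%, 9.01% and 22.9%, and Basp1 in 48.9%, 14.1% and 1.42%. Stmn3 took the reverse order, with 38.6% of neuroblast-like and 72.4% of ganglion-like cells. These shares pool the cells of all mice, and mouse #2 gave 1500 of the ganglion-like cells before thinning. As means over the 10 mice, Stmn3 was found in 39.9 ± 4.36% and 68.6 ± 10.9%, Marcksl1 in 63.8 ± 5.87% and 14.8 ± 8.20%, and Stmn1 in 94.2 ± 2.32% and 64.3 ± 4.77%. For Tubb3 the pooled shares were 72.1% and 89.6%, but the means were 72.2 ± 4.10% and 76.1 ± 16.7%, with 38.9 to 94.9% in the ganglion-like cells of single mice. Without thinning, the shares of Stmn1 were 94.6%, 85.0% and 54.7%. H-MYCN, which marks the transgenic neuroblasts, was found in 13.9% of neuroblast-like, 0.195% of ganglion-like and 0.109% of Schwann-like cells at 500 UMIs. These intervals cover counting error only and treat cells as independent, which they are not within a mouse.

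Within the neuroblast-like class the genes were followed along the cell cycle, as many of these cells divide. Cells with at least 1000 UMIs were thinned to 1000 and ranked by the summed UMIs of 97 S and G2M phase genes. The 787 cells from the 75th percentile up (24 UMIs or more) were set against the 789 cells up to the 25th percentile (6 or fewer) in the 9 mice with at least 10 cells in each. These are ranges of a score, in which 248 cells lie within 1 UMI of the upper and 349 within 1 UMI of the lower limit. Of the 10 genes, 3 were higher and 5 lower in the cells high in cycle genes, with a background of 39.8% of 4948 genes called, 19.8% higher and 19.9% lower.

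Stmn1 had the clearest rise with the cycle genes. It ran from 5789 over 8320 to 9412 CPM in the high range and from 4048 over 5933 to 6847 CPM in the low range. The ranges overlapped, and the level was higher in 9 of 9 mice (log2 fold change 0.59, SE 0.08, adjusted p = 1.7e-05 by edgeR). Marcks (0.70, SE 0.14) and Marcksl1 (0.35, SE 0.10) were each higher in 8 of 9 mice and past the threshold. Their ranges overlapped as well, from 157 to 276 CPM in the high and 80.6 to 244 CPM in the low cells for Marcks, and from 2110 to 2771 and 1205 to 2535 CPM for Marcksl1.

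Stmn2, Stmn3 and Tubb3 moved down with the cycle genes. Stmn2 ran from 1524 over 2267 to 2451 CPM in the high and from 2623 over 3570 to 4391 CPM in the low range, with no overlap and lower in 9 of 9 mice (log2 fold change −0.71, SE 0.07, adjusted p = 8.0e-07 by edgeR). Tubb3 ran from 2058 over 2507 to 2833 CPM and from 3275 over 4420 to 5439 CPM, also with no overlap (−0.78, SE 0.08, adjusted p = 9.5e-07 by edgeR). Stmn3 had the largest difference of the 10 genes (−0.82, SE 0.10), and Gap43 (−0.52, SE 0.11) and Tubb2b (−0.34, SE 0.09) also passed. With cells ranked by G2M genes alone, Tubb2b (−0.16) did not pass and Stmn4 (0.39) did, which gave 4 genes higher and 4 lower. Basp1 (0.03, SE 0.10, adjusted p = 0.845 by edgeR) and Stmn4 (0.21, SE 0.11, adjusted p = 0.151) did not pass. H-MYCN itself stood at 296 ± 126 and 333 ± 191 CPM, higher in 5 of 9 mice. The 14 ganglion markers made up a median of 0.141% of UMIs in the high range (0.123 to 0.182%) and 0.558% in the low range (0.241 to 2.08%), and the 14 Schwann cell markers 0.0174% and 0.0869%. The part of these RNAs was not tested.

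A second range within the neuroblast-like class was taken from an axis between the 2 neural classes. It weighs 30 genes of ganglion neurons against 30 genes of malignant cells from the study's own gene tables, which were made on these samples, and none of the 10 genes is among them. Position 0 is the median neuroblast-like and 1 the median ganglion-like cell. Of 3063 cells placed, 175 (5.71%) lay at 0.3 or higher, called ganglion-ward here, 44 of them at 0.7 or higher and 113 of all placed cells within 0.05 of the limit. Genes related to the axis differ between its ranges by construction. Beside the ganglion-ward cells stand measured facts whose part was not tested. Schwann cell markers made up 0.144% of their UMIs against 0.0198% in the others, 20% of them had high doublet scores against 5.96%, and their median depth was 5337 against 4084.5 UMIs. The free RNA estimated for their sums ran from 0% (mice #1 and #2) to 50% (mouse #6), against 0.718 to 4.55% in the other cells. A mouse gave between 5 (#6) and 42 (#10) ganglion-ward cells.

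In ganglion-ward cells 5 of the 10 genes were higher and 3 lower, with a background of 44.4% of 4911 genes called, 21.1% higher and 23.3% lower. Gap43 ran from 2183 over 3634 to 4689 CPM in them and from 1283 over 1774 to 2155 CPM in the other cells, with no overlap and higher in 10 of 10 mice (log2 fold change 1.01, SE 0.13, adjusted p = 1.2e-06 by edgeR). Stmn3 ran from 1028 over 2233 to 2999 CPM and from 684 over 1035 to 1355 CPM, higher in 9 of 10 mice (1.13, SE 0.16, adjusted p = 4.0e-06 by edgeR). Stmn2 (0.71, SE 0.14), Tubb3 (0.68, SE 0.15) and Tubb2b (0.65, SE 0.14) were also higher.

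Marcksl1 was lower in the ganglion-ward cells, from 529 over 1516 to 2058 CPM against 2095 over 2259 to 2794 CPM, with no overlap (log2 fold change −0.79, SE 0.16, adjusted p = 0.0003 by edgeR). Marcks (−0.69, SE 0.21, adjusted p = 0.01) and Stmn1 (−0.55, SE 0.11) were lower as well, and H-MYCN was at 126 ± 105 against 338 ± 168 CPM. Basp1 (−0.22, adjusted p = 0.203) and Stmn4 (−0.31, adjusted p = 0.096) did not pass. The 3 lower calls rest on the 44 cells at 0.7 or higher. Without them Marcks was at −0.13, Marcksl1 at −0.22 and Stmn1 at −0.12, none past the threshold, whereas the 5 higher calls remained. The background of that setting was 14.5% higher and 15.5% lower of 2245 genes. Without the filter on low counts, 2 genes (Gap43 and Stmn3) were called higher and 5 lower.

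**Figure D4:**
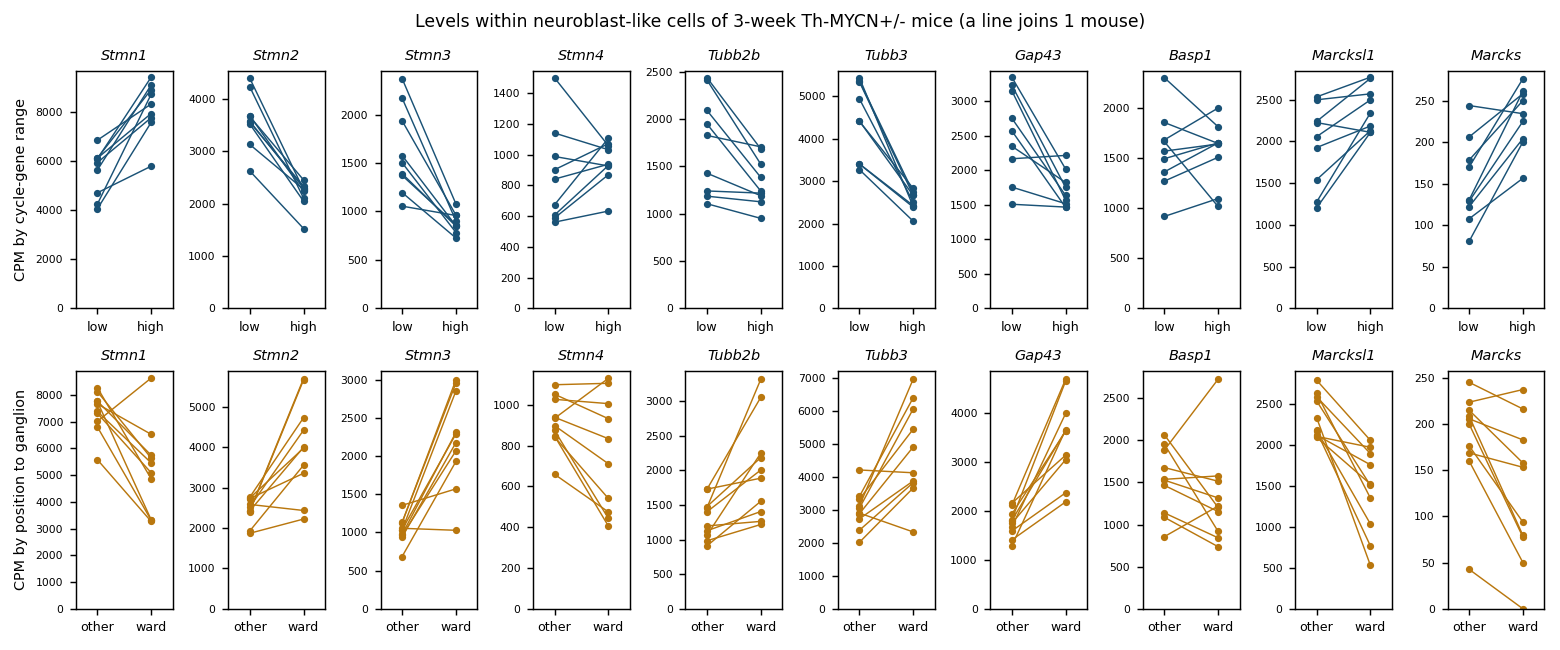
Levels in CPM of the 10 genes in ranges of neuroblast-like cells, high against low in cycle genes (9 mice) and ganglion-ward against other cells (10 mice), with 1 line for each mouse. The lines of Stmn2 and Tubb3 fall from low to high in cycle genes in every mouse, those of Stmn1 rise in every mouse, and those of Gap43 rise towards the ganglion-ward cells in 10 of 10 mice.

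The other genes of microtubules, axon growth and kinase signalling give the setting of these values. Of 11 other tubulin genes, 10 were tested between neuroblast-like and ganglion-like cells, and 6 were higher and 3 lower in neuroblast-like cells (median log2 fold change 0.58, over all genes 0.09). Over all 7808 genes 36% were higher and 31.6% lower, which is also the background of the axon growth, calmodulin and kinase genes below. The alpha-tubulin Tuba1c was higher by 3.60, with Tubg1 of the centrosome at 1.24, Tubb6 at 1.23, Tubb5 at 0.75, Tuba1b at 0.73 and Tuba1a at 0.43. Tuba4a (−2.70), Tubb2a (−0.67) and Tubb4a (−0.57) were lower, and Tubb4b (0.06) did not pass.

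Of 34 other genes of axon growth, 33 were tested, and 8 were higher and 18 lower in neuroblast-like cells (median −0.56). The largest falls were those of Map1a (−3.16), a microtubule-associated protein of mature neurons, Nrn1 (−2.94), which encodes the neurite factor neuritin, and the axonal motors Kif1a (−2.16) and Kif5a (−2.08). Dcx (2.34), the doublecortin of migrating neuroblasts, the actin-binding Dbn1 (2.03) and Fscn1 (1.76), and Dpysl4 (1.92), a collapsin response mediator, were higher. Of 14 calmodulin and kinase genes, all of them tested, 1 was higher, the Cdk5 activator Cdk5r1 (0.79). Another 8 were lower, led by the protein kinase C gene Prkca (−2.30), the JNK kinases Mapk9 (−1.83) and Mapk10 (−1.53), and Cdk5 (−1.09).

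Along the cell cycle (background 19.8% of 4948 genes higher and 19.9% lower), 6 of 9 other tubulins tested were higher and 3 lower in the high range. Of 29 axon growth genes, 0 were higher and 15 lower, and of 11 calmodulin and kinase genes, 1 was higher and 2 lower. A gene that is itself among the cycle genes of the ranking is higher in the high range by construction. The tubulin count was not repeated without such genes, so part of it can follow from the ranking itself. In ganglion-ward cells 2 of 7 tubulins were higher and 2 lower, 15 of 30 axon growth genes higher and 3 lower, and 3 of 11 calmodulin and kinase genes higher and 0 lower. There the background was 21.1% of 4911 genes higher and 23.3% lower. Against Schwann-like cells, 20 of 32 axon growth genes were higher and 4 lower in neuroblast-like cells, and 21 of 25 were higher and 1 lower in ganglion-like cells. The other tubulins were higher in 7 of 8 and in 7 of 7 tested, and the calmodulin and kinase genes in 8 of 12 and in 5 of 7. Over all genes 36% were higher and 31.4% lower in neuroblast-like cells, and 34.9% and 33.9% in ganglion-like cells. Counts near the background are no result about a list.

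The genes with the most similar pattern were sought by the Pearson correlation of log2(CPM + 10) over 68 sums of a mouse and a class (12 mice, 8 classes) and 3455 genes with a mean of at least 50 CPM. The points share libraries and classes, so that r is a description. Among the 45 pairs of the 10 genes r ran from 0.000371 to 0.946 with a median of 0.797. Stmn2 and Stmn3 were the closest pair (0.95).

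For each gene the 3 genes with the highest r were taken. Those of Gap43 were Stmn3 (0.94), Scg5 (0.93) and Ddc (0.93), those of Stmn2 were Stmn3, Rtn1 (0.93) and Gap43 (0.92), and those of Stmn3 were Scg5 (0.95), Stmn2 and Pcsk1n (0.94). Tubb3 was closest to Stmn3 (0.93), Caly (0.93) and Mllt11 (0.93). Gap43, Stmn2, Stmn3 and Tubb3 are the 4 genes with their highest mean in ganglion-like sums. Tubb2b was closest to Nefl (0.93), Uchl1 (0.93) and Ttc9b (0.93), and Stmn4 to Mab21l2 (0.92), Elavl4 (0.92) and Bex1 (0.91). Basp1 was closest to Tubb2b (0.85), Uchl1 (0.85) and Gng3 (0.85), and Stmn1 to Nnat (0.87), Tubb5 (0.85) and Bex4 (0.84). Nnat and Nefl are among the markers by which neuroblast-like clusters were named. Marcksl1 was closest to Cadm1 (0.77), Gfra3 (0.73) and Pcbp4 (0.72). Marcks stood apart, with lower values for Celf2 (0.70), Alg5 (0.58) and Xpnpep1 (0.55).

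The conditions could only be set side by side, as 1 WT mouse and 1 6-week-old mouse were measured, and a permutation of 1 mouse against 10 cannot give a p below 0.0909. In the ganglion-like cells of the WT mouse (88 cells), 0 of the 10 genes lay outside the levels of the 10 hemizygous mice of that age, against 16.4% of 3220 genes with at least 50 CPM. Its Gap43 level was 2680 CPM (95% Poisson interval 2491 to 2880), its Stmn2 level 3533 CPM and its Tubb3 level 4310 CPM. The stathmin shares of these WT cells were 29.3% Stmn1, 39.0% Stmn2, 28.8% Stmn3 and 2.82% Stmn4, within 1 percentage point of the means of the 10 mice. Its Schwann-like cells had 0 of 10 outside (background 11.4%), but with barcodes of at least 500 UMIs as cells 3 genes lay below (Stmn1, Stmn2 and Tubb2b), and 4 with cells of at least 1000 UMIs (Basp1, Marcksl1, Stmn2 and Tubb2b).

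Since the 46 WT cells in neuroblast-like clusters went against their name, their levels are given without comparison of a cell type. Of the 10 genes, 6 lay outside the range of the neuroblast-like sums, with a background of 66.6% of 3220 genes. Stmn1 was at 2193 CPM, Marcksl1 at 227 CPM, Basp1 at 302 CPM and Stmn4 at 151 CPM, all below it, and Stmn3 at 2029 CPM and Tubb3 at 5331 CPM above it. Without the cluster of low depth, 28 cells with 8953 UMIs remained, and all 10 genes lay outside (background 75.2% of 3230 genes), with Marcks above and the other 9 below, Stmn3 and Tubb3 with 0 UMIs among them. In all 46 cells, Stmn1 gave 30.4% of the stathmin UMIs (exact interval 26.7 to 34.4%) and Gap43 87.4% of the UMIs of Gap43 and Basp1 (81.8 to 91.7%), values within the ranges of the ganglion-like sums.

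In the 6-week-old mouse, Marcksl1 was the only one of the 10 genes outside the 3-week-old range with cells called by EmptyDrops. Its level was 1513 CPM in 372 neuroblast-like cells, against a lowest 3-week-old level of 1549 CPM, and 78.1 CPM (62.2 to 96.8) in 147 ganglion-like cells, against a lowest level of 160 CPM. The background was 20.7% of 3220 genes in neuroblast-like, 9.13% in ganglion-like and 5.96% of 3236 genes in Schwann-like sums, where 0 of 10 lay outside. Without a neuroblast-like cluster of low depth, 0 of 10 lay outside in neuroblast-like cells, while Marcksl1 in ganglion-like cells also lay below the range with barcodes of at least 500 UMIs as cells and with cells of at least 1000 UMIs. The former setting also put Stmn3 above the range in neuroblast-like cells, and the latter put Marcksl1 below it in Schwann-like cells. Stmn1 gave 52.2% of the stathmin UMIs in neuroblast-like cells of this mouse, just below the 53.0% of the lowest 3-week-old mouse, and Stmn3 gave 14.0%, just above the highest of 13.6%. The age, the visible tumour and the library cannot be told apart in a single mouse.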

How the data were processed

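The authors counted UMIs with Cell Ranger (version 3.0.2 per the file headers) on mm10 with human MYCN added, and deposited raw counts for every barcode. The sources used here do not give the annotation release, and gene positions come from GENCODE on GRCm38. The labels give no batch or date.

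Barcodes were called as cells by a re-implementation of EmptyDrops (false discovery rate 0.01, free RNA profile from barcodes with at most 100 UMIs). Those under 200 genes, over 10% mitochondrial or over 60% ribosomal UMIs were left out, which left 12005 cells. Between them, libraries shared at most 6 barcodes in any pair. Cells were clustered with Seurat 5.3.0 and sctransform 0.4.2 (30 components, resolution 0.5) and clusters named when at least 50% of a marker list and 3 markers were met. The limit of 50% was chosen with the clusters in view. Scrublet in scanpy 1.11.5 marked 0.416% of the cells, and no doublets were removed from the main values. Whether few doublets were present or many were missed was not tested. One macrophage-like cluster also held genes of B cells. The neuroblast-like clusters of 1598 and 1437 cells met 100% of the neuroblast markers and also 66.7% of the chromaffin cell markers. The neuroblast-like cluster of low depth (2224 cells, median 496 UMIs) met 91.7% of the neuroblast markers. In it and in the cluster of 1598 cells, 0 neuroblast markers were among the 10 leading genes. The ganglion-like cluster of high depth (314 cells) also met 50% of the Schwann cell markers.

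UMIs were summed per mouse and class (at least 10 cells, 5 on the axis) and tested with edgeR 4.0.16 (filterByExpr, TMM, quasi-likelihood test, mouse as a block, Benjamini-Hochberg over all genes tested, threshold 0.05) in R 4.3.3. Both sums of a mouse come from 1 animal and 1 library, which pairs them. The correlation of their deviations from the class means ran from −0.00706 to 0.324 (neuroblast-like and ganglion-like), 0.0472 to 0.209 and 0.0441 to 0.275 (either with Schwann-like), 0.0942 to 0.436 (cycle) and 0.0186 to 0.333 (axis). On simulated data for neuroblast-like against ganglion-like cells, with 200 genes changed by 1.5 on the log2 scale, edgeR recovered 190 of 190 changed genes left after filtering and made 11 false calls among 7976 genes. Shares were tested by exact sign-flip permutation. Python 3.11.15, numpy 2.4.6, scipy 1.17.1, pandas 2.3.3 and matplotlib 3.10.9 were also used.

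The 10 genes, the lists and the tests were chosen with earlier results of these data known. All 10 genes are named, with every other tubulin tested, the 4 largest called changes in each direction of the other lists between neuroblast-like and ganglion-like cells, the 3 genes most alike to each, and checks of classes and free RNA, of which some are not reported here. The alternatives were other cell calling, filters, clustering, scaling, tools (DESeq2 1.42.0), limits and thinning, subtraction of free RNA, no block and mouse #2 left out. Chosen after the data had been seen were those that leave out clusters of unusual depth, high Scrublet scores in the ranges, or Schwann-like cells over 10000 UMIs.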

Additional observations from a re-analysis of the deposited data

Results flagged for a closer look

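In 12 of 54 groups of 10 mice examined, 1 mouse lay so far from the others that the gap to its nearest neighbour exceeded Dixon's 95% critical value. Chance gives about 1 in 20 such groups. Of the 12, 8 concern levels and 4 concern shares, and the groups share mice and classes.

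Ganglion-like sums gave 5 of the levels. Gap43 was lowest in mouse #2, with 2189 CPM against 3011 to 3849 CPM in the others. Stmn1 was highest in mouse #6 (27 ganglion-like cells), with 4861 CPM against 2122 to 3193 CPM. Marcksl1 was highest in mouse #8 (40 cells), with 901 CPM against 160 to 448 CPM, and so were Stmn4 with 763 CPM against 156 to 414 CPM and Tubb2b with 2527 CPM against 556 to 1483 CPM. Dlk1, a neuroblast marker, was also highest in the ganglion-like sum of mouse #8, at 137 CPM, and the share of free RNA estimated for ganglion-like sums reached its upper limit of 50% in mice #6 and #8, against 10.0 to 28.7% in the others. The part of either in these values was not tested.

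Schwann-like sums gave 3 levels, each highest in mouse #6: Basp1 with 1355 CPM against 0 to 144 CPM, Stmn4 with 227 CPM against 0 to 41.2 CPM and Tubb3 with 455 CPM against 43.0 to 246 CPM. Without the 1 cell of 27462 UMIs described above, Basp1 was at 0 CPM, Stmn4 at 21.9 CPM and Tubb3 at 98.6 CPM in this mouse, which lies within the ranges of the others.

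Among the shares, Stmn1 gave 41.5% of the stathmin UMIs in the ganglion-like sum of mouse #6 against 21.7 to 32.1% in the others. Stmn4 gave 7.79% in that of mouse #8 against 1.91 to 4.17%. Tubb2a gave 16.7% of the beta-tubulin UMIs in that of mouse #2 against 8.42 to 12.8%. Tubb6 gave 0.399% in the neuroblast-like sum of mouse #9 against 0.103 to 0.256%.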

How the results depend on the processing

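Over all alternatives, 678 values of the 10 genes in the comparisons kept their direction and their side of the threshold, 14 passed newly, 12 no longer passed and 6 turned their sign. A few settings left the sums of a comparison as they were. The 6 were small and not called: Basp1 between cycle ranges (−0.013 without TMM scaling, −0.030 with free RNA subtracted, −0.013 with the cells split at the median, −0.020 without the highest 5% of Scrublet scores), and on the axis Basp1 (0.16) and Stmn4 (0.24) without cells at 0.7 or higher. The share of Tubb4b turned to 0.304 percentage points with free RNA subtracted. Without a filter on low counts the genes called rose to 8139 from 3839 (neuroblast-like against Schwann-like), 6968 from 2223 (ganglion-like against Schwann-like), 3283 from 1967 (cycle) and 4779 from 2180 (axis), where more genes were tested. On the axis, a limit of 0.4 gave 3769 calls and leaving out cells at 0.7 or higher 673. Of the 10 genes, 2 were then higher on the axis without the filter (5 otherwise), and 5 were lower without the filter, 5 at the limit of 0.4 and 0 without cells at 0.7 or higher (3 otherwise). The cause was not tested. Values outside the 3-week-old range numbered 1 in place of 2 for the 6-week-old mouse without the neuroblast-like cluster of low depth, and for the WT mouse 3 (500 UMIs) and 4 (1000 UMIs) in place of 0.

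Without the replicate block, which pairs the sums of a mouse, 5302 genes were called between neuroblast-like and ganglion-like cells in place of 5283, with Tubb3 added (−0.47). Between cycle ranges 1710 were called in place of 1967, without Marcksl1 (0.32) and Tubb2b (−0.37), and no other call among the 10 genes changed. Of the mice only #2 was left out, which was not in the cycle comparison. Depth limits the Schwann-like values most: a mouse gave between 0 and 27 UMIs of Stmn4 and between 4 and 539 of Stmn1 in this class, and mouse #2 had 11 such cells.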

Other observations

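In the smaller classes of the 3-week-old Th-MYCN+/- mice the 10 genes were low and few UMIs stood behind each value. Stmn1 was at 392 ± 188 CPM in endothelial-like sums (SD, n = 9 mice, 259 UMIs in all) and at 201 ± 254 CPM in macrophage-like sums (n = 9, 69 UMIs). Relative to free RNA these were medians of 0.123 and 0.0442 times its level. Basp1 was at 169 ± 107 CPM in macrophage-like sums (64 UMIs), 0.220 times the free level, and at 20.5 ± 30.4 CPM in endothelial-like sums (7 UMIs). Marcks was the only one of the 10 genes whose median lay above the free level in endothelial-like (1.16 times), macrophage-like (1.98 times) and fibroblast-like sums (1.17 times, 7 UMIs). Tubb2b had 0 UMIs in the myofibroblast-like sums and Basp1 and Stmn4 had 0 UMIs in the fibroblast-like sums, at a depth that does not show their absence.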
